A study of Mus musculus with 12 samples.

Results

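Interferon-induced genes were followed in the tibialis anterior, a fast-twitch muscle of the lower hindlimb, of control mice and of mice that lack SMYD1 in their muscle fibers. They are 35 genes chosen by symbol, all of which were listed in the files, out of 23923 genes, and 31 of them were expressed highly enough to be tested. The 35 comprise 3 sensors of viral RNA, 6 transcription factors, ISG15 and its protease, 13 antiviral effectors, 6 interferon-gamma inducible GTPases and 5 other induced genes. RNA was sequenced from 12 mice aged 6 weeks, 1 library per mouse, all on a mixed C57BL6/J;129S1/SvImJ background. The 6 controls had the genotype Myf6 cre/+; Smyd1 flox/+ and the 6 Smyd1 CKO mice had Myf6 cre/+; Smyd1 flox/-. Both groups therefore carried the Cre allele at the Myf6 locus, which is expressed in muscle fibers after they have differentiated. Per the study's methods, both also carried a Cre-dependent YFP reporter at the Rosa26 locus. The null allele of the CKO mice is present in every cell, so the vessel, connective tissue and blood cells of a CKO muscle were heterozygous for Smyd1.

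Interferons are secreted proteins that warn cells of infection. Type I interferons act through the receptor IFNAR1/IFNAR2 and the kinases JAK1 and TYK2, which activate a complex with STAT2 and IRF9 that binds the interferon-stimulated response element (ISRE). Type II interferon, or interferon-gamma, comes mainly from T and NK cells and acts through the gamma-activated site (GAS). Most cell types respond, including muscle fibers and endothelial cells, and the induced genes usually move as a block. In muscle they are best known from dermatomyositis, an inflammatory myopathy in which they are strongly raised.

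Many promoters of the members carry the letters of these elements, and examples are shown from the GTPases, the antiviral effectors, Isg15 and Irf1. Promoters came from RefSeq (GRCm38.p6), which held a window for 27 of the 35 members, and each window spanned 250 bases before to 50 after the transcription start. No window was held for Dhx58, Usp18, Mx1, Mx2, Oas2, Iigp1, Ifi27 and Parp14. The letters of the ISRE core, GAAANNGAAA on either strand, were present in 16 of the 27 (59.3%) and in 3.99% of 27025 genes. The letters of the GAS core, TTCNNNGAA, which read the same on both strands, were present in 9 of the 27 (33.3%) and in 9.55% of all genes. The 2 sets of letters can overlap, as they did in Bst2 and Ifitm3. For the members below, 60 bases upstream of the start are given 5′ to 3′ on the strand of the gene, with the bases of a match in capitals.
Gbp2, chr3:142620579-142620638, plus strand: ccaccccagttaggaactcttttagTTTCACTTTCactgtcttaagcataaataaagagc
Gbp3, chr3:142559977-142560036, plus strand: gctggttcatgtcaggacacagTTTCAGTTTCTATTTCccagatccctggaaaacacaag
Gbp7, chr3:142530258-142530317, plus strand: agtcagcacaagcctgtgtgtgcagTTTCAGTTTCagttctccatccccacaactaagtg
Igtp, chr11:58199496-58199555, plus strand: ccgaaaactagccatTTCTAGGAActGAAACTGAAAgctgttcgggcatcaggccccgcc
Irgm1, chr11:48871421-48871480, minus strand: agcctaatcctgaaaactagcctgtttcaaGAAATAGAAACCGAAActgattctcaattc
Isg15, chr4:156200856-156200915, minus strand: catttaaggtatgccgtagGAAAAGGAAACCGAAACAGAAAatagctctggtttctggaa
Ifit1, chr19:34640769-34640828, plus strand: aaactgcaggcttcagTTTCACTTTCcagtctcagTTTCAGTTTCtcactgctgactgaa
Ifit3, chr19:34583365-34583424, plus strand: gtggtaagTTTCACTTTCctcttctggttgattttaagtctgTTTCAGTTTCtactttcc
Ifitm2, chr7:140955973-140956032, minus strand: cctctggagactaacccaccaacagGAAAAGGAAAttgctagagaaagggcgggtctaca
Irf1, chr11:53769898-53769957, plus strand: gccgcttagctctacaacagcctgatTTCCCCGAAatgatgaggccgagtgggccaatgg

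Isg15 held 3 overlapping ISRE matches in this stretch, and Ifit1, Ifit3, Gbp3 and Irgm1 held 2 each. Igtp held a GAS match just upstream of its ISRE match, and Irf1 held a GAS match and no ISRE match. A match is only a description of the letters, and binding was not measured.

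Levels are FPKM, that is fragment numbers corrected for transcript length and library size. Most members were barely expressed in resting muscle. Member means over the 12 mice ran from 0.0244 to 8.96 FPKM with a median of 0.653, and 22 of the 35 lay under 1 FPKM. The 4 members below the limit for testing, at least 0.1 FPKM in at least 6 mice, were Mx1, Mx2, Oas1a and Oas2. At such levels few fragments stand behind a value. For 24 members the FPKM values corresponded to whole fragments, taken as the smallest whole numbers that matched within 0.03 fragments. Isg15, for example, stood on 0 to 7 fragments per library. Reads that mapped to several places had been discarded, so values of members with close copies (the Ifit, Ifitm, Oas, Mx and Gbp genes, Igtp and Irgm1) are uncertain.

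As a check of the groups, the Smyd1 transcript was at 37.4 ± 5.64 FPKM in controls (SD, n = 6) and 34.1 ± 4.37 in CKOs (SD, n = 6), a log2 fold change of -0.13 (exact permutation test, two-sided, P = 0.29). After median-ratio scaling it was -0.32 (limma adjusted P = 0.0797). The FPKM of the whole gene thus did not separate the genotypes at the adjusted threshold on either scale. Loss of the deleted exons cannot be read from a whole-gene value. In the study's Western blots, SMYD1 protein was undetectable in the tibialis anterior of CKO mice. Relative depth ranged over 1.80-fold between libraries and was 1.08 in CKO 2, close to the lower end. Across all genes the FPKM of CKOs were shifted upward, with a median log2 fold change of 0.18 over the 12695 genes tested, which median-ratio scaling reduced to 0.0079. Values after this scaling are therefore given beside those as deposited for the members that passed a threshold. Control 1 and CKO 1 had the highest size factors, 1.12 and 1.15, and the other 5 controls had 0.854 to 1.02.

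Members were higher on average in the CKO group, but the mice of that group differed widely and 1 of them, CKO 2, held most of the highest values. Of the 31 tested members, 10 (32.3%) were higher in CKOs at an unadjusted P below 0.05 and 0 were lower. Among all genes tested, 18.1% were higher and 1.76% were lower at that threshold. With limma and Benjamini-Hochberg adjustment over all genes tested, 0 members passed an adjusted P of 0.05, against 2.02% of all genes higher in CKOs. The smallest adjusted P was 0.107, for Ifitm2. The median log2 fold change was 0.37 over the members and 0.18 over all genes, and 28 of the 31 were positive, against 77.9% of all genes. After median-ratio scaling, 4 of 31 were higher (Irf1, Ifitm1, Ifitm2 and Igtp) and 0 were lower at an unadjusted P below 0.05, against 6.62% and 7.44% of all genes. The scaled median was 0.24 over the members, and 25 of the 31 were positive, against 51.2% of all genes. No member had all 6 CKO values above all 6 control values, a separation that 2.23% of all genes showed. Without the filter on low values, 8 of the 35 members were higher, against 14.2% of all genes.

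**Figure D1:**
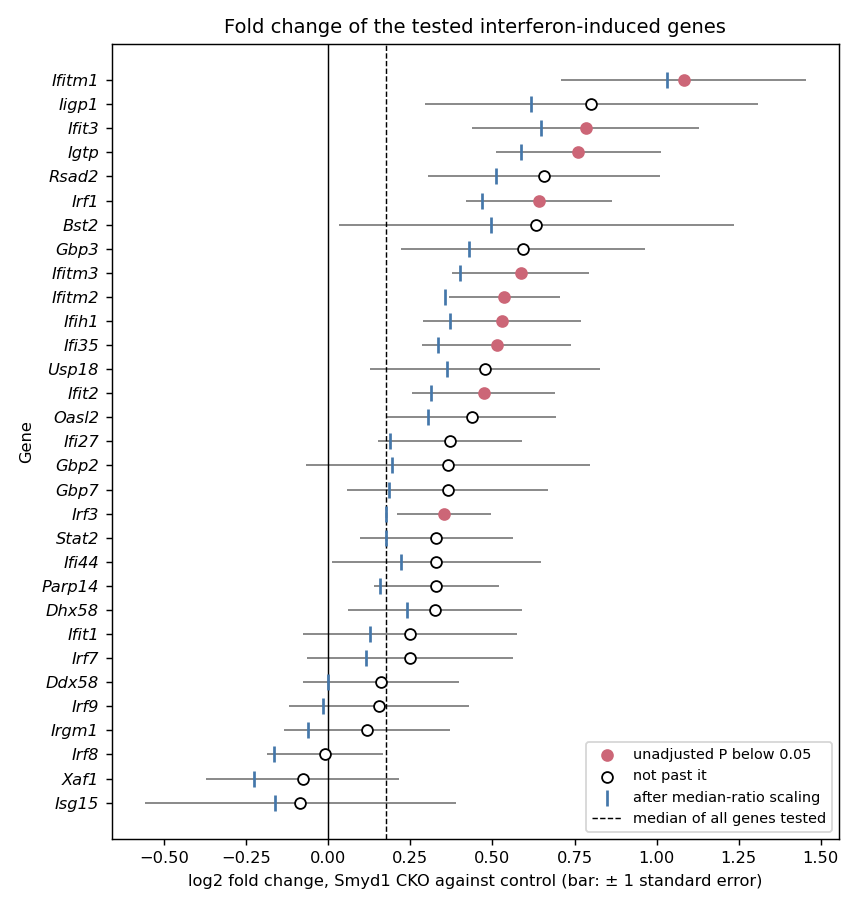
Log2 fold change of each of the 31 tested genes, CKO against control, with filled points for an unadjusted P below 0.05, bars of ± 1 standard error, blue ticks for the value after median-ratio scaling and a dashed line at the median of all genes (0.18). The 10 filled points lie between 0.35 and 1.08, all to the right of the dashed line, and each blue tick lies left of its point.

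Among the RNA sensors, Ifih1 (MDA5) and Ddx58 (RIG-I) start the interferon response when they bind viral RNA. Ifih1 ranged from 0.311 to 0.776 FPKM in controls (median 0.493) and from 0.387 to 1.04 in CKOs (median 0.873). CKO 1, CKO 2 and CKO 6 lay above the highest control, while CKO 3 lay below the control median. The means were 0.511 ± 0.160 and 0.795 ± 0.268 FPKM (SD, n = 6 each), a log2 fold change of 0.53 (SE 0.24, limma unadjusted P = 0.0441, adjusted P = 0.236). After scaling it was 0.37 and did not pass (limma unadjusted P = 0.121). Ddx58, the sensor with the highest level, ranged from 0.449 to 0.851 FPKM in controls (median 0.722) and from 0.457 to 1.33 in CKOs (median 0.758). Its log2 fold change was 0.16 (SE 0.24, limma adjusted P = 0.728), and after scaling it was -0.0019. The sensor Dhx58 (LGP2) had a log2 fold change of 0.33 at a mean of 0.0912 FPKM in controls.

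Of the transcription factors, Irf1 and Irf3 passed the unadjusted threshold. Irf1, an early target of interferon-gamma that drives further induced genes, ranged from 0.734 to 1.73 FPKM in controls (median 1.10) and from 1.27 to 3.16 in CKOs (median 1.75). CKO 2 was the highest mouse and control 1 the highest control, and 4 of 6 controls lay below every CKO. The means of Irf1 were 1.16 ± 0.351 and 1.88 ± 0.684 FPKM (SD, n = 6 each), a log2 fold change of 0.64 (SE 0.22, limma unadjusted P = 0.0114, adjusted P = 0.137) and of 0.47 after scaling. Irf3, which is switched on by phosphorylation and is itself little induced, ranged from 0.942 to 1.43 FPKM in controls (median 1.20) and from 1.32 to 1.93 in CKOs (median 1.53). Its log2 fold change was 0.35 (SE 0.14, limma unadjusted P = 0.0270, adjusted P = 0.191), and 0.18 after scaling, where the P was 0.255. Stat2 and Irf9, which act together at the ISRE, had log2 fold changes of 0.33 and 0.15 and did not pass. Irf7, which amplifies type I interferon production, had 0.25, with its highest value of 0.853 FPKM in CKO 5. Irf8, a factor of macrophages and dendritic cells, had a log2 fold change of -0.010 (SE 0.18).

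ISG15 is a ubiquitin-like protein that is attached to other proteins and that USP18 removes. Isg15 was listed at 0.367, 0.109, 0.194, 0.339, 0 and 0.159 FPKM in controls 1 to 6 and at 0.0692, 0.792, 0.188, 0.158, 0 and 0.104 FPKM in CKOs 1 to 6. Its value in CKO 2 was the highest of the 12, and the other 5 CKOs lay within the control range. These are 11 fragments over the 6 controls and 13 over the 6 CKOs. The log2 fold change of Isg15 was -0.085 (SE 0.47, limma adjusted P = 0.938), so no difference between the groups was seen. With so few fragments a difference could have been missed. Usp18 ranged from 0.0482 to 0.366 FPKM in controls (median 0.176) and from 0.0885 to 0.743 in CKOs (median 0.264). Here CKO 5 was the highest mouse, and the log2 fold change was 0.48 (SE 0.35, limma adjusted P = 0.451).

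The antiviral effectors held 5 of the 10 members that passed, out of 9 effectors tested (55.6%), against 18.1% of all genes higher in CKOs. After scaling 2 of the 9 passed, against 6.62% of all genes. Without CKO 2 it was 2 of 8, against 18.8% of all genes. IFITM proteins sit in membranes and block the fusion of enveloped viruses. Ifitm2 ranged from 2.31 to 4.72 FPKM in controls (median 2.83) and from 3.63 to 5.18 in CKOs (median 4.40). Only control 1 overlapped the CKO range, and the other 5 controls lay below every CKO. The means of Ifitm2 were 3.07 ± 0.928 and 4.39 ± 0.639 FPKM (SD, n = 6 each), with a log2 fold change of 0.54 (SE 0.17, limma unadjusted P = 0.00617, adjusted P = 0.107) and of 0.35 after scaling. Ifitm3, the effector with the highest level, ranged from 4.04 to 7.42 FPKM in controls (median 5.99) and from 5.57 to 13.1 in CKOs (median 8.82). CKO 1 and CKO 2 both read 13.1 FPKM, 4 CKOs lay above the highest control, and CKO 3 and CKO 6 lay within the control range. The log2 fold change of Ifitm3 was 0.59 (SE 0.21, limma unadjusted P = 0.0131, adjusted P = 0.144). After scaling it was 0.40 (limma unadjusted P = 0.0755).

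Ifitm1 was near the limit of detection. It was listed at 0 in 5 controls and at 0.108 FPKM in control 3. In CKOs 1 to 6 it was listed at 0.155, 0.127, 0, 0.531, 0.139 and 0.116 FPKM. These values stood on 1 fragment over all controls and 11 over all CKOs, a ratio per unit of depth of 10.2 (exact 95% interval 1.48 to 438.5, counting error only). Its fitted log2 fold change, which depends on the pseudocount, was 1.08 (limma unadjusted P = 0.0107) and 1.03 after scaling (limma unadjusted P = 0.0133). Ifitm1 entered the test only through the CKO group, where 5 mice reached 0.1 FPKM against 1 control. Of the 30 other tested members, 9 passed the unadjusted threshold, against 18.1% of all genes higher in CKOs.

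IFIT proteins bind foreign RNA and block its translation. Ifit2 ranged from 0.397 to 1.01 FPKM in controls (median 0.536) and from 0.541 to 1.21 in CKOs (median 0.831). Control 1 was the highest control, and 5 of 6 CKOs lay above the other 5 controls. The log2 fold change of Ifit2 was 0.47 (SE 0.22, limma unadjusted P = 0.0455, adjusted P = 0.240), and 0.31 after scaling, where it did not pass (limma unadjusted P = 0.133). Ifit3 ranged from 0.0601 to 0.550 FPKM in controls (median 0.283) and from 0.285 to 0.898 in CKOs (median 0.529). CKO 1, CKO 2 and CKO 4 lay above every control, and the log2 fold change was 0.78 (SE 0.34, limma unadjusted P = 0.0384, adjusted P = 0.223). After scaling Ifit3 had 0.65 and did not pass (limma unadjusted P = 0.0813). Ifit1 had a log2 fold change of 0.25, with 0.555 FPKM in CKO 1 and 0.616 in CKO 2 above a highest control of 0.334.

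Bst2 (tetherin), which holds budding virus at the cell surface, was listed at 0.483, 1.08, 0.670, 0.223, 0 and 0.549 FPKM in controls 1 to 6. In CKOs 1 to 6 it was listed at 1.43, 2.01, 0.465, 0.156, 0.982 and 0.205 FPKM. CKO 1 and CKO 2 lay above all controls and CKO 4 and CKO 6 lay in the lower part of the control range, so Bst2 had one of the widest spreads in both groups. Its log2 fold change was 0.63 (SE 0.60, limma adjusted P = 0.569). Rsad2 (viperin) and Oasl2, from the family of oligoadenylate synthetase genes, had log2 fold changes of 0.66 and 0.44 and did not pass. Both were highest in CKO 2, at 1.42 and 0.654 FPKM.

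Few fragments stood behind the 4 members that were not tested. Mx1, which is disrupted in many laboratory strains, rested on 5 fragments over the controls and 11 over the CKOs, and Mx2 on 12 and 28. Mx2 was highest in CKO 5, at 0.427 FPKM. Oas1a rested on 5 and 3 fragments, and Oas2 on 28 and 31. CKO 5 was the highest of the 12 mice for Mx2, and also for Usp18, Irf7 and Ifi35. These last are 3 of the 31 tested members, and CKO 5 held the highest value for 16.6% of all genes tested.

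The interferon-gamma inducible GTPases showed the largest spread among the CKO mice. Guanylate-binding proteins (Gbp2, Gbp3, Gbp7) and immunity-related GTPases (Igtp, Iigp1, Irgm1) attack the vacuoles of intracellular parasites and bacteria. All 6 were highest in CKO 2. Gbp2 reached 5.75 FPKM there, against 0.638 to 2.86 in the other 5 CKOs and 0.685 to 2.04 in controls. Gbp3 reached 3.84 FPKM in CKO 2, against 0.512 to 1.50 in the other CKOs and 0.524 to 0.812 in controls. Gbp7 reached 6.17 FPKM, against 1.13 to 2.92 and 1.36 to 2.41. For each of the 3 Gbp genes, at least 1 CKO mouse lay below the lowest control while CKO 2 lay above the highest. Their group means differed by 0.36, 0.59 and 0.36 on the log2 scale, with limma adjusted P of 0.657, 0.380 and 0.515. Without CKO 2 the differences of Gbp2, Gbp3 and Gbp7 were 0.0075, 0.23 and 0.10.

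Igtp was the GTPase that passed the unadjusted threshold. It ranged from 0.802 to 1.60 FPKM in controls (median 1.32) and from 1.58 to 4.78 in CKOs (median 1.90). CKO 2 was 2.13 times the next highest mouse, and 5 of 6 CKOs lay above every control. The means of Igtp were 1.27 ± 0.357 and 2.34 ± 1.22 FPKM (SD, n = 6 each), with a log2 fold change of 0.76 (SE 0.25, limma unadjusted P = 0.00820, adjusted P = 0.120), 0.59 after scaling and 0.54 without CKO 2 (unadjusted P = 0.0132). Iigp1 had the highest level of all 35 members. It ranged from 3.19 to 13.6 FPKM in controls (median 4.21) and from 2.64 to 23.1 in CKOs (median 12.4). The highest control was control 1, and CKO 3 and CKO 6, at 2.64 and 3.12 FPKM, lay below every control. The log2 fold change of Iigp1 was 0.80 (SE 0.51, limma adjusted P = 0.383), 1.08 without control 1 (limma unadjusted P = 0.0438) and 0.53 without CKO 2 (limma unadjusted P = 0.306). It also passed the unadjusted threshold without CKO 3 (1.15) and without CKO 6 (1.10). Irgm1 was at 4.23 FPKM in CKO 1 and 4.72 in CKO 2, against 1.53 to 2.95 in controls and 1.66 to 2.37 in the remaining CKOs. Its log2 fold change was 0.12 (SE 0.25).

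**Figure D2:**
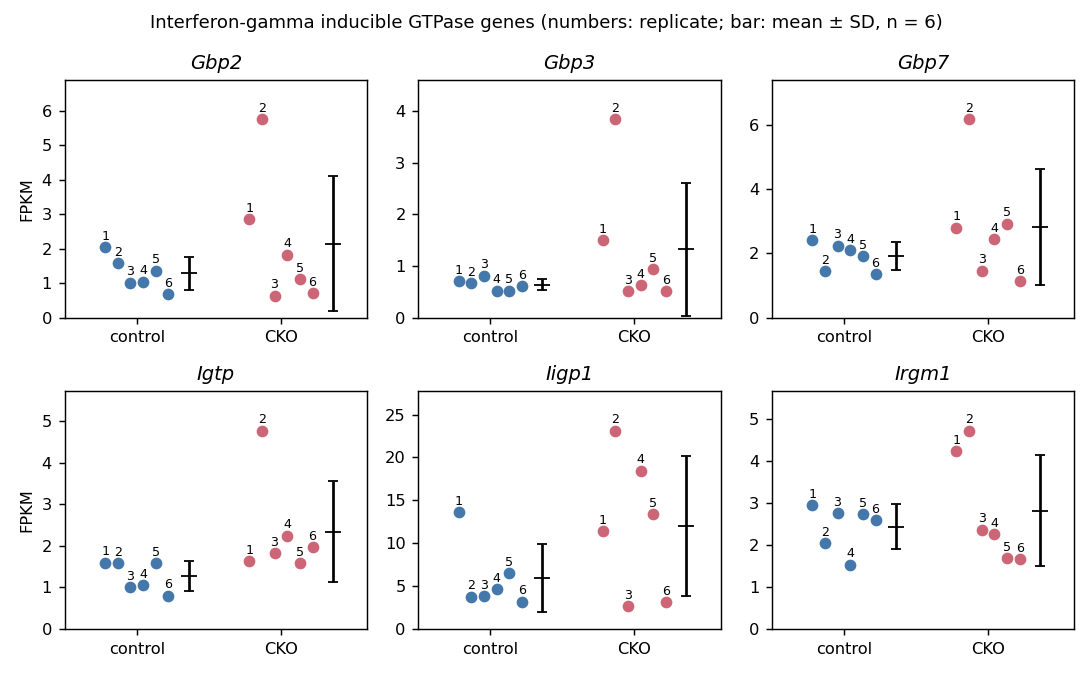
FPKM of the 6 interferon-gamma inducible GTPase genes in each mouse (points numbered by replicate, blue for control and red for CKO, bars for the mean ± SD, n = 6), each panel with its own linear axis from 0. CKO 2 is the highest point in every panel, from 3.84 FPKM (Gbp3) to 23.1 FPKM (Iigp1).

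Of the other induced genes, Ifi35 passed the unadjusted threshold. It encodes a partner of the interferon-induced protein NMI. Ifi35 ranged from 1.09 to 2.99 FPKM in controls (median 1.82) and from 1.99 to 3.39 in CKOs (median 2.51), and its log2 fold change was 0.51 (SE 0.23, limma unadjusted P = 0.0395, adjusted P = 0.226). After scaling it was 0.33 and did not pass (limma unadjusted P = 0.124). The highest mouse was CKO 5 and the highest control was control 1. Ifi27, the member of this group with the highest level, ranged from 2.08 to 5.71 FPKM in controls (median 3.47) and from 3.51 to 5.59 in CKOs (median 5.13). Control 1 was the highest mouse, and the log2 fold change was 0.37 (SE 0.22, limma adjusted P = 0.354). Ifi44 was nearly constant, at no more than 0.127 FPKM in controls and 0.0734 to 0.103 in 4 CKOs, but read 0.450 and 0.441 FPKM in CKO 1 and CKO 2. Parp14 and Xaf1 had log2 fold changes of 0.33 and -0.078 and did not pass.

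**Figure D3:**
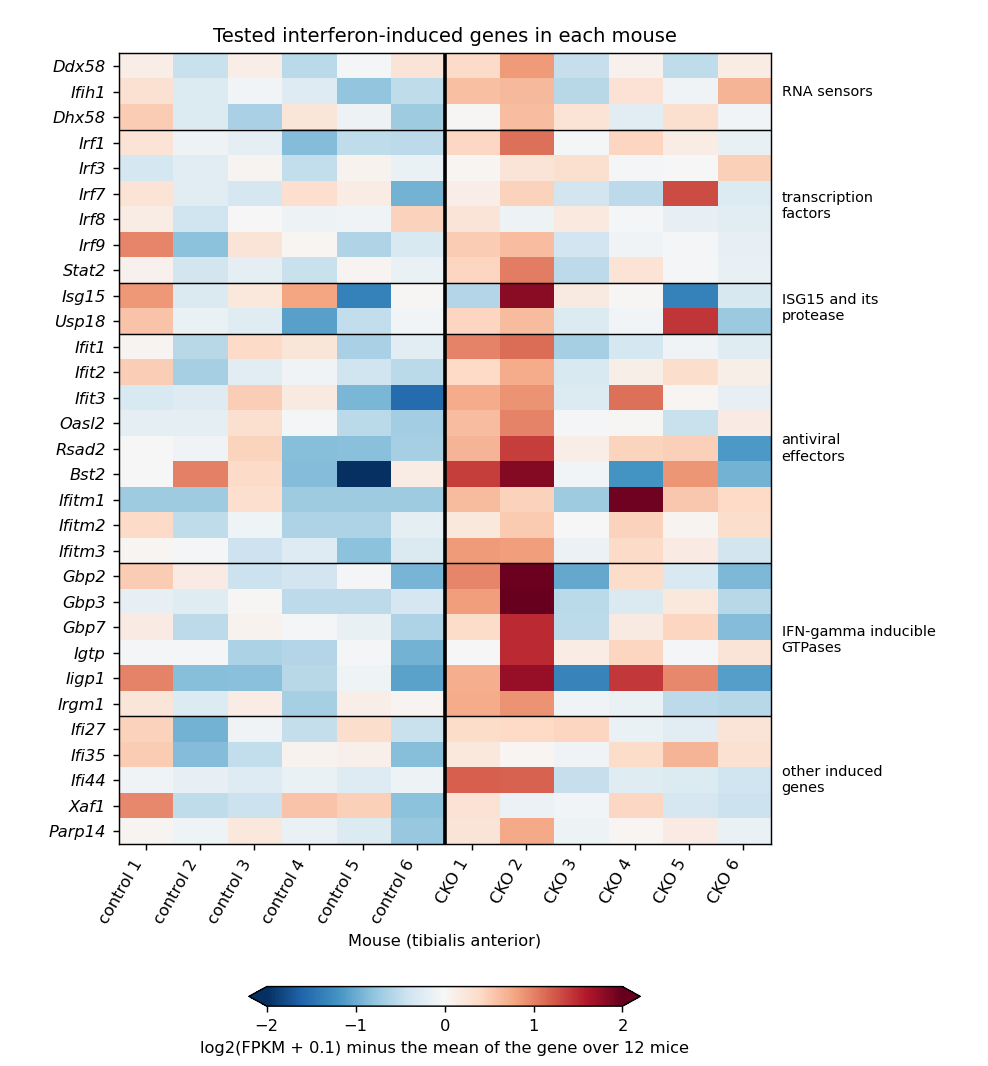
Log2(FPKM + 0.1) of the 31 tested genes (rows, grouped by role) in the 12 mice (columns), centred on each gene's average, red for above and blue for below, with colors saturated beyond 2 in either direction. CKO 2 is the reddest column and is highest of the 12 for 18 of the 31 genes, and CKO 3 and CKO 6 resemble the controls.

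To score each mouse, log2(FPKM + 0.1) of every tested member was centred on its 12-mouse average and the 31 centred values were averaged, so that 0 is an average mouse. The scores of controls 1 to 6 were 0.23, -0.32, -0.066, -0.27, -0.39 and -0.45. Those of CKOs 1 to 6 were 0.49, 0.93, -0.23, 0.18, 0.12 and -0.22. CKO 2 and CKO 1 lay above every control, CKO 4 and CKO 5 lay above every control except control 1, and CKO 3 and CKO 6 lay within the control range. The group means were -0.21 ± 0.25 and 0.21 ± 0.44 (SD, n = 6 each), which differ by 0.42, less than the SD among the CKOs. Over all genes tested the same score differed by 0.18 between the groups, with SDs of 0.14 and 0.062. After scaling, the members' scores differed by 0.27, with an SD of 0.15 among controls and 0.45 among CKOs. Members were chosen with results of these data known, so the score carries no P.

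**Figure D4:**
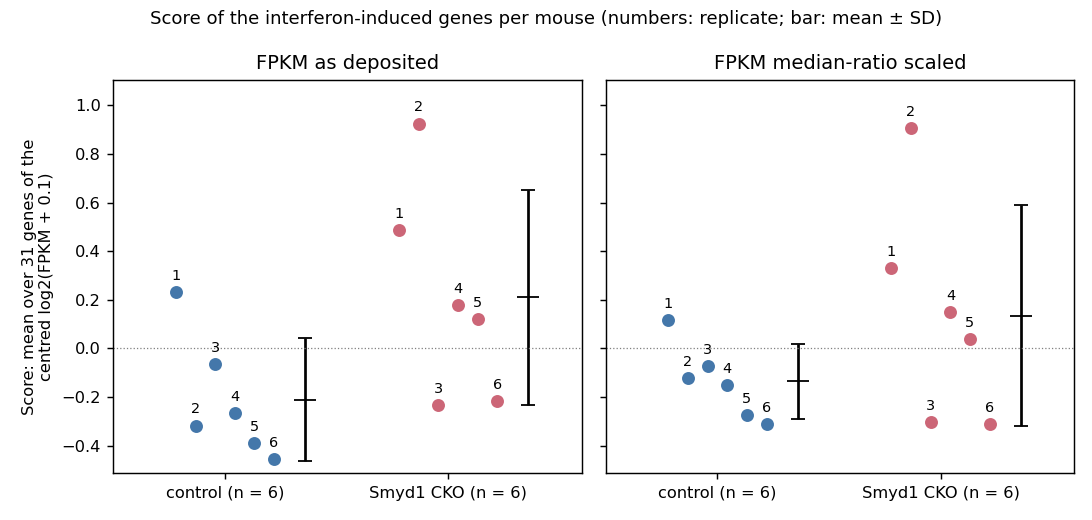
Score of the 31 genes in each mouse (points numbered by replicate, bars for the mean ± SD, n = 6) for FPKM as deposited (left) and after median-ratio scaling (right), on a linear axis in log2 units. On both scales CKO 2 is highest (0.93 and 0.91), and CKO 3 and CKO 6 lie among the controls on the left and level with the lowest controls on the right.

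The spread in the CKO group was carried by the same mice in most roles. CKO 2 had the highest score in each role except the other induced genes, from 0.56 for the transcription factors to 1.62 for the GTPases. CKO 1 was second to it for the sensors, transcription factors, effectors and GTPases, with 0.61 for the GTPases, and highest for the other induced genes, at 0.47 against 0.45 in CKO 2. GTPase scores had an SD of 0.83 in the CKO group and of 0.32 in the control group. CKO 2 read above the median of the 12 mice for 28 of the 31 members, CKO 1 for 30 and control 1 for 25, but CKO 3 and CKO 6 for 10 each. Over all genes tested, the share above the median was 53.7% in CKO 2, 74.2% in CKO 1, 63.3% in control 1, 62.0% in CKO 3 and 64.6% in CKO 6. CKO 2 held the highest value for 7.18% of all genes, against 18 of 31 members. In control 1 the picture was different, since it held the highest value for 20.1% of all genes and for 3 of 31 members. After scaling, CKO 2 was highest for 21 of the 31 members and for 8.52% of all genes.

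Control 1 was the control with the highest score and read highest of the 6 controls for 19 of the 31 members. The share of all genes for which it was highest of the controls was not worked out. Its score over all genes tested, 0.145, was also the highest of the controls, against -0.23 to -0.0088 in the others. Without it the SD of the control score fell to 0.15 and the difference between the groups was 0.51. Then 11 of 30 members were higher at an unadjusted P below 0.05, against 27.2% of all genes. Of these, Ifitm2 (limma adjusted P = 0.0115) and Irf1 (limma adjusted P = 0.0413) passed the adjusted threshold, against 8.56% of all genes. With scaling and without control 1, 0 of 30 members passed the adjusted threshold, against 1.43% of all genes higher in CKOs. The difference between the group scores was then 0.32. Without control 1 all 6 CKO values of Ifitm2 lay above all 5 controls, as they did for 1 of 30 members and for 6.16% of all genes. Leaving out CKO 2 moved the result the other way. The difference between the group scores was then 0.25, with SDs of 0.26 among controls and 0.31 among CKOs, and 6 of 29 members were higher, against 18.8% of all genes. With scaling and without CKO 2, the difference was 0.084, 0 of 29 members were higher at an unadjusted P below 0.05 and 0 at an adjusted P below 0.05 (limma), against 6.65% of all genes higher at the unadjusted threshold, and the median log2 fold change was 0.13.

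Other genes of the pathway were read from lists that hold no member. Of 11 interferon genes, 8 were listed at 0 in all 12 mice, Ifnb1 and Ifng among them, and 0 reached the limit for testing. Ifne was listed above 0 in control 3 alone, at 0.110 FPKM, Ifna2 in CKO 2 alone, at 0.149 FPKM, and Ifnk in CKO 2 and control 5, at 0.209 and 0.177 FPKM. Fragment numbers were not worked out for these genes. For comparison, Ifitm1 at 0.127 FPKM in CKO 2 rested on 1 fragment. Among the receptors and kinases, Ifnar1 and Ifnar2 were higher and Jak2 was lower at an unadjusted P below 0.05. Ifnar2, a chain of the type I receptor, was at 1.55 ± 0.440 FPKM in controls and 2.83 ± 1.10 in CKOs (SD, n = 6 each), a log2 fold change of 0.78 (SE 0.25, limma unadjusted P = 0.00785, adjusted P = 0.119). It read 4.02 FPKM in both CKO 1 and CKO 2, and the highest control read 2.16. After scaling its log2 fold change was 0.60 (limma unadjusted P = 0.0280). Ifnar1, the other chain, had a log2 fold change of 0.40 (limma adjusted P = 0.156), and 0.22 after scaling, where it did not pass. Jak2, the kinase of the interferon-gamma receptor, had a log2 fold change of -0.47 (limma unadjusted P = 0.0235), and was named after its value was seen. After scaling Jak2 had -0.66 (limma unadjusted P = 0.00384).

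Of 11 tested adaptors, kinases and factors upstream of interferon production, 0 were higher and 1 was lower at an unadjusted P below 0.05. Of all genes, 18.1% were higher and 1.76% were lower. The lower one of the 11 was Irf5, which acts below Toll-like receptors, with a log2 fold change of -0.73 (SE 0.32, limma adjusted P = 0.214). After scaling Irf5 had -0.91 (limma unadjusted P = 0.0105). The adaptor Myd88 and the RNA receptor Tlr3 had 0.54 and 0.45 and did not pass. Of 7 tested negative regulators, Pias1, an inhibitor of the pathway, had 0.35 (limma unadjusted P = 0.0303, adjusted P = 0.201), and the other 6 did not pass. After scaling Pias1 had 0.16 and did not pass (limma unadjusted P = 0.274). Of 46 further interferon-induced genes tested, 13 (28.3%) were higher and 0 were lower at the unadjusted threshold, against 18.1% and 1.76% of all genes. This list had a median log2 fold change of 0.43 and 45 positive values, against 77.9% positive over all genes. After scaling it held 5 higher, against 6.62% of all genes, and a median of 0.27. Without CKO 2 it held 7 of 46 higher, against 18.8% of all genes, and a median of 0.32. The smallest P belonged to Tor3a (log2 fold change 0.59, limma adjusted P = 0.0685), Trafd1, a brake on the response (0.45, limma adjusted P = 0.0836), and Gbp6, a guanylate-binding protein (0.99, limma adjusted P = 0.0974). The score of this list was highest in CKO 2 (0.88) and CKO 1 (0.51) and lowest among CKOs in CKO 3 (-0.22), the same order of these mice as for the members. Of all 74 tested pathway genes outside the members, 17 (23.0%) were higher, 2 were lower and 0 passed after adjustment, against the 18.1% of all genes that were higher. After scaling, 6 of the 74 were higher and 5 were lower, against 6.62% and 7.44% of all genes.

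Bulk muscle also holds other cells, and in such samples fewer cells of a type and less RNA per cell cannot be told apart. The muscle label was borne out by fast-fiber genes, whose 8 markers summed to 21570 to 35140 FPKM per mouse. The 13 macrophage markers summed to 57.0 FPKM in control 1 and 14.0 to 23.8 in the other controls, and to 18.8 to 35.0 in CKOs, where CKO 1 read 35.0 and CKO 2 read 31.1. None of the 13 macrophage markers was at 0 in all mice. None of the 12 tested passed the unadjusted threshold, against 18.1% of all genes higher in CKOs. Their median log2 fold change was 0.35, and 0.23 after scaling, with 10 of 12 positive, beside 0.37 and 0.24 for the members. Fibroblast markers were also high in control 1 (714 FPKM summed over 6 genes), CKO 1 (422) and CKO 2 (406), against 184 to 298 in the other mice. Of these 6, 2 were higher in CKOs at the unadjusted threshold, and 1 after scaling, against 18.1% and 6.62% of all genes. Their median log2 fold change was 0.43. The 8 endothelial markers summed to 64.0 FPKM in CKO 2, the highest of the 12, and to 37.9 to 53.6 in the other mice. The 4 general leukocyte markers summed to 2.84 FPKM in CKO 1, the highest of the 12, and to as little as 0.935 FPKM among the CKOs. Their sum was 2.16 FPKM in CKO 2, within the range of 1.64 to 2.51 in controls. T and NK cell markers summed to 2.69 FPKM in CKO 2 and 4.60 in control 1, most of it from Thy1, with Nkg7 at 0 in every mouse. B cell markers summed to 0.171 FPKM in CKO 2 and at most 0.178 in controls, with Pax5 at 0 in every mouse. The 5 neutrophil markers found, with Ngp at 0 in every mouse, summed to 1.15 FPKM in CKO 1 and 1.02 in CKO 2, and to at most 0.726 in controls. The 5 plasmacytoid dendritic cell markers, which include the member Bst2, summed to 12.3 FPKM in CKO 2 and 7.44 to 10.7 in controls, most of it from Tcf4. The 6 red blood cell markers summed to 26.1 FPKM in CKO 2 and 12.9 to 52.0 in controls. The part of these cells in the scores of CKO 2, CKO 1 and control 1 was not tested.

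**Figure D5:**
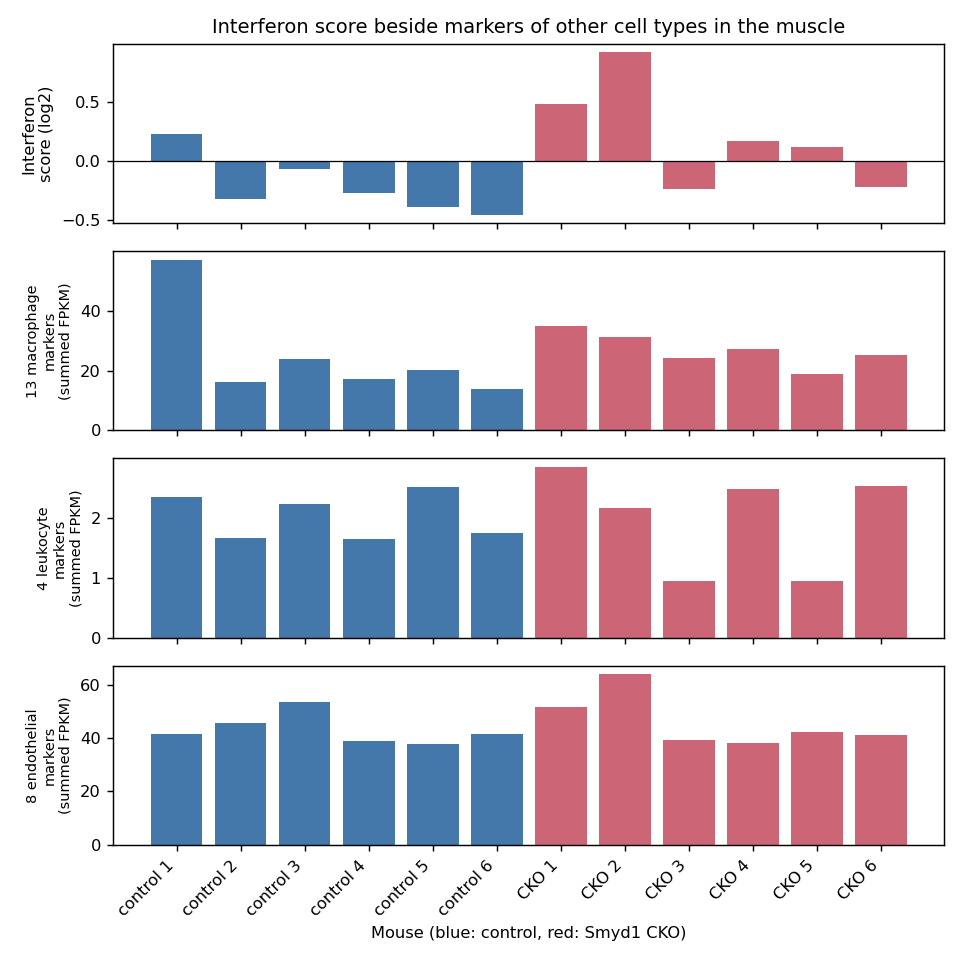
Score of the 31 interferon-induced genes (top, log2 units) and summed FPKM of 13 macrophage, 4 general leukocyte and 8 endothelial markers (below) in each of the 12 mice, blue for control and red for CKO. The macrophage sum is highest in control 1 (57.0 FPKM), the endothelial sum in CKO 2 (64.0 FPKM) and the leukocyte sum in CKO 1 (2.84 FPKM). The leukocyte sum of CKO 2 (2.16 FPKM) lies within the control range.

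Slow-fiber genes also varied widely between the CKO mice, and 5 of 6 slow-fiber markers were higher in CKOs at an unadjusted P below 0.05, against 18.1% of all genes. After scaling, 4 were higher and 1 was lower, against 6.62% and 7.44% of all genes. In the study's staining of this muscle, the share of type I (slow) fibers did not differ significantly. The 6 markers summed to 126, 20.2, 75.0, 26.5, 27.2 and 271 FPKM in CKOs 1 to 6 and to 14.1 to 46.0 in controls. CKO 2 had the highest interferon score and the lowest slow-fiber sum of the CKO group, while CKO 1 was second highest in both, and CKO 3 and CKO 6 had high sums and low scores.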

How the data were processed

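RNA from the tibialis anterior of 6 control and 6 Smyd1 CKO mice was depleted of ribosomal RNA and sequenced. Per the study's methods, reads were trimmed, aligned with bowtie2 and TopHat, reads mapping to several places were discarded, and FPKM were computed with Cufflinks. The submitters' processing notes name mm9, TopHat2 2.0.10 and Cufflinks 2.1.1. The deposited files hold 1 FPKM per gene symbol, normalized by the authors to transcript length and mapped fragments. The authors' own comparison used DESeq on counts, which were not analysed here.

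Each file had 23950 rows. Of these, 27 had a date in place of a symbol and were dropped, leaving 23923 genes. Groups came from the sample labels. The main comparison was limma 3.58.1 (R 4.3.3) with an intensity trend, two-sided, on log2(FPKM + 0.1), on the 12695 genes that reached 0.1 FPKM in 6 or more of the 12 samples, with Benjamini-Hochberg adjustment over all of them. Fold changes are on the log2(FPKM + 0.1) scale, which understates changes of low genes. No score or list was tested, and markers were summed as FPKM.

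Read depth is not given in the files. Relative depth, read from the steps between FPKM below 0.15, ran from 0.984 (CKO 5) to 1.77 (CKO 1), with control 1 at 1, and intervals cover counting error only. P-values set the difference between the groups against the spread between these mice, which limma moderates across genes.

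Members and lists were chosen with earlier results of these data known. Values are given for members with an unadjusted P below 0.05, the highest member of each role, and the 3 widest ranges in each group. From other lists, the 3 genes with the smallest P are named, except 1 that is not reported here. Other members and markers were added for their role or after their values were seen.

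Alternative settings were median-ratio scaling, quantile normalization, a pseudocount of 1, no filter, a filter at 1 FPKM, sample weights, limma without the trend, the replicate number as a block, and each mouse left out in turn. Scaling with control 1 or CKO 2 left out was added after the values were seen. Promoters came from RefSeq (GRCm38.p6). The code was tested on simulated data. Proteins and histology were not analysed here.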

Additional observations from a re-analysis of the deposited data

Results flagged for a closer look

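Each tested member and the score over the members were examined within each group for a mouse far from the other 5. The measure was the gap to that mouse's nearest neighbor over the range of the group (Dixon's critical value at 95%). Member values were taken on the log2 scale used for the fold changes, not as FPKM. Of 64 groups examined, 2 passed, and chance alone passes about 1 in 20.

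Igtp in CKO 2, at 4.78 FPKM, stood apart from the other 5 CKOs. The gap was 0.687 of the range on the log2 scale. Relative depth in CKO 2 was 1.08, and its endothelial markers summed to 64.0 FPKM, the highest of the 12 mice. The part of either in the value was not tested.

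Ifitm1 in control 3, at 0.108 FPKM, stood apart because the other 5 controls were listed at 0, so that the gap was the whole range. The value rests on 1 fragment.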

How the results depend on the processing

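The count of 10 members higher at an unadjusted P below 0.05 depended on the scale and on single mice. It was 4 with median-ratio scaling (6.62% of all genes), 3 with quantile normalization (6.38%), 6 of 13 with a filter at 1 FPKM (21.3%), 13 with sample weights (29.2%), and 5 to 11 when each mouse was left out in turn. The count was 5 of 29 without CKO 1 (13.7%) and 5 of 30 without CKO 4 (17.8%), and 6 without control 6 (14.7%) and without CKO 2 (18.8%). With scaling it was 6 without control 1 (8.71%) and 0 without CKO 2 (6.65%), where the score difference was 0.084. The count past the adjusted threshold was 4 of 31 with sample weights (11% of all genes) and 0 to 2 when each mouse was left out. The score difference ranged from 0.25 (without CKO 2) to 0.52 (without CKO 3) when each mouse was left out. The direction of Ddx58 reversed with median-ratio scaling (-0.0019), with quantile normalization (-0.056), and with scaling without control 1 (-0.00022) or CKO 2 (-0.17). That of Isg15 became positive with a pseudocount of 1 (0.0086), with sample weights (0.12) and in 4 of 12 leave-one-out fits, which ranged from -0.46 to 0.18. The cause was not tested. Of 337 values of the named members under these alternatives, 259 kept direction and side of the unadjusted threshold, 62 lost the call, 6 gained it and 10 reversed.

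Samples of the 2 groups share replicate numbers, and the labels do not say whether these pair the mice. Between mice of the same number, the correlation of deviations from the group means ran from -0.086 to 0.16, with 2 of 6 pairs over 0.1. Its mean was 0.040, against -0.0088 for other pairs, and 5 of 12 mice correlated best with their own number. These weak correlations cannot decide whether mice of the same number shared a litter or batch. With the replicate number as a block, 10 members were higher, against 19.2% of all genes, with Ifit2 (limma unadjusted P = 0.0568) no longer among them and Rsad2 (limma unadjusted P = 0.0470) added, and the difference between the group scores stayed at 0.42. Depth limited the members under 1 FPKM.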
